A study of Mus musculus with 12 samples.

Results

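The genes described here are 10 regulators of the passage from G1 into S phase: the D-type cyclins Ccnd2 and Ccnd3, their kinase partners Cdk4 and Cdk6, the E-type cyclins Ccne1 and Ccne2, the CDK inhibitor Cdkn1b, the retinoblastoma gene Rb1, and the transcription factors E2f1 and E2f2. They were chosen by name for their roles, with earlier results of these data known, and read from a table of 15651 genes. All 10 had a row, and all 10 passed the filter on low values in every comparison. RNA was measured in c-Kit+ enriched splenocytes of moribund mice with acute myeloid leukemia of 2 genotypes, D/F (Dnmt3afl/fl,Flt3ITD/ITD,Mx1Cre) and T/F (Tet2fl/fl,Flt3ITD/ITD,Mx1Cre). Cells of 3 mice per genotype were each divided between CCS1477 (inobrodib, a compound that binds the bromodomains of the histone acetyltransferases p300 and CBP) and DMSO vehicle for 6 hours, which gave 12 libraries in 4 groups. CCS1477 was given at 4 µM to D/F cells and at 2 µM to T/F cells, so dose and genotype cannot be told apart. The medium contained the cytokines SCF, IL6 and IL3 in all groups. Both genotypes carried the Flt3ITD/ITD alleles and Mx1Cre. Cre was not induced in these mice, and recombination came from background activity of the interferon-responsive Mx1 promoter. There was no group without Flt3ITD and no normal progenitor group. The labels give no age.

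In G1, mitogen signals raise the D-type cyclins, which activate CDK4 and CDK6. These kinases phosphorylate Rb, the product of Rb1, which otherwise holds the activator E2F factors in check. Freed E2F factors switch on Ccne1, Ccne2 and the genes of DNA replication, and cyclin E with CDK2 completes the phosphorylation of Rb. The inhibitor p27, the product of Cdkn1b, binds cyclin-CDK complexes and restrains CDK2. Cyclin D2, cyclin D3 and CDK6 are the forms best known from blood cells. All values below are transcript levels and say nothing of protein, phosphorylation or cell cycle phase.

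Levels are given in TPM, a unit of transcript abundance that is corrected for transcript length and relative to all transcripts of a library. Read depth cannot be recovered from TPM, and the sum over the table ranged from 914204 to 931697 TPM per library. Replicate 2 of D/F stood apart: its correlations with the other libraries of its group were 0.945 to 0.956 (Pearson, log2 scale over genes), against 0.978 to 0.982 between replicates 1 and 3. That mouse had the highest Kit (149 TPM with DMSO) and the lowest Mpo and Elane among the DMSO libraries (1163 and 454 TPM), and the summed level of 4 of the 5 listed megakaryocyte markers was 212 TPM with DMSO, against 34.9 to 56.6 TPM in the other DMSO libraries. All 8 progenitor and myeloid blast markers together reached 2534 to 6800 TPM under DMSO and 732 to 2897 TPM under CCS1477, and the summed level of all 7 mature neutrophil markers was 1626 to 9363 TPM over the 12 libraries. The other lists were low. T cell markers summed to 13.8 to 25.7 TPM (3 of 6 had a value), B cell markers to 4.13 to 23.2 TPM (2 of 5) and macrophage markers to 2.72 to 32.1 TPM (4 of 5). Several sums moved with treatment. The macrophage sum was higher under DMSO (16.0 to 32.1 TPM) than under CCS1477 (2.72 to 12.3 TPM). The B cell sum was 10.8 to 23.2 TPM under DMSO and 4.13 to 9.54 TPM under CCS1477 for D/F, and 16.8 to 20.5 and 11.3 to 14.2 TPM for T/F. Most of it was Cd79b. The other B cell gene with a value, Pax5, was low and went the other way in each D/F mouse. It was at 0.368 to 0.445 TPM under DMSO and 0.488 to 1.32 TPM under CCS1477 in D/F, and at 1.05 to 2.38 and 0.425 to 0.748 TPM in T/F. The megakaryocyte sum was 34.9 to 212 and 20.1 to 65.4 TPM for D/F, and 49.4 to 56.6 and 32.7 to 35.2 TPM for T/F. These 3 sums and that of the progenitor and blast markers were lower with CCS1477 in 6 of 6 mice. The part of these cell markers in the results below was not tested. In these bulk samples, fewer cells of a type and less RNA per cell cannot be told apart. The gene-level values did not check the genotypes, since the floxed alleles remove only some of the exons: under DMSO, Dnmt3a was at 29.3 to 55.7 TPM in D/F libraries and 39.9 to 53.9 TPM in T/F libraries, and Tet2 at 38.3 to 43.4 TPM and 30.0 to 35.8 TPM. Ptprc, which encodes the leukocyte antigen CD45, was listed at only 0.826 to 3.11 TPM in these blood cells, so a low value in this table was not taken as low expression.

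After 6 hours with CCS1477, Ccnd2 and Cdk6 transcripts had fallen and those of Cdkn1b had risen in both genotypes. In T/F, 8 of the 10 genes passed the test (limma on log2(TPM + 1), Benjamini-Hochberg adjusted p under 0.05 over all genes tested): Ccnd2, Cdk4 and Cdk6 fell, and Ccne1, Ccne2, Cdkn1b, Rb1 and E2f2 rose. In D/F 3 members passed: Ccnd2, Cdk6 and Cdkn1b. Cdk6 had the largest change in both genotypes, with log2 changes of -2.47 (D/F) and -1.77 (T/F). E2f1 passed in neither, and Ccnd3 was too low and too uneven to call.

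These counts stand against a broad response of the whole table. In D/F, 5.14% of 15501 genes tested passed as higher and 6.51% as lower, against 1 and 2 of the 10. With quantile normalization 54.7% of all calls in D/F were higher, against 44.1% as deposited. In T/F, 25.8% of 15256 genes passed as higher and 17.6% as lower, against 5 and 3 of the 10. Of all calls in T/F 59.4% were higher as deposited and 49.5% with each library rescaled to its median gene. With a change above 2-fold also required, the background in D/F was 2.67% higher and 4.61% lower, and that in T/F was 2.63% and 4.70%. Ccnd2 and Cdk6 passed that limit in both genotypes, and E2f2 passed it in T/F. With both genotypes fitted together, 25.8% of 15583 genes passed as higher and 19.6% as lower, and Ccnd2, Cdk4, Cdk6, Cdkn1b, Rb1 and E2f2 were the members that passed. The D/F test depended on single mice. Without replicate 1 or without replicate 3 no gene of the whole table passed in D/F by limma (2494 and 2330 genes, 3 and 4 of them members, had an unadjusted p under 0.05). Leaving out replicate 2 instead gave 6 members that passed, with 3739 calls over all genes against 1805 with all mice. With the mouse as a block in the fit, which compares the paired cultures of each mouse, 21.4% of all genes passed as higher and 18.0% as lower in D/F, and 6 members passed, with Cdk4, Rb1 and E2f2 joining the 3 above.

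**Figure D1:**
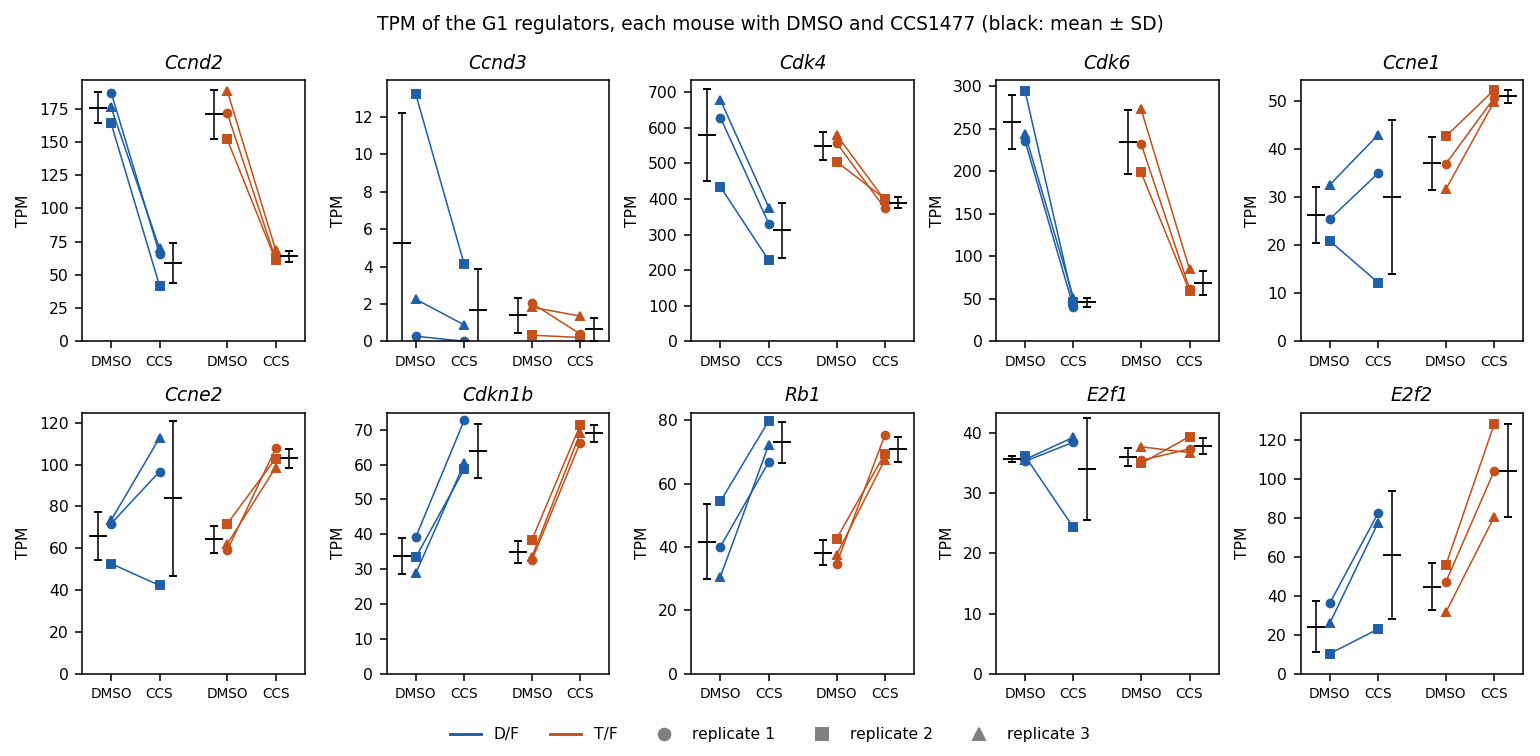
TPM of each of the 10 genes in the 12 libraries, with DMSO and CCS1477 cultures of one mouse joined by a line (D/F in blue, T/F in orange, the marker shape gives the replicate, black bars are the mean ± SD of 3 libraries, cut at 0 for Ccnd3). Ccnd2, Cdk4 and Cdk6 slope down and Cdkn1b, Rb1 and E2f2 slope up in all 6 mice, while replicate 2 of D/F (squares) runs against the other mice for Ccne1 and Ccne2.

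Among the D-type cyclins, Ccnd2 (ENSMUSG00000000184, GRCm38 chromosome 6, 127125162 to 127152193, minus strand), which encodes cyclin D2, had the highest level. D/F replicates 1, 2 and 3 had 187, 164 and 176 TPM under DMSO, and 65.7, 41.9 and 69.9 TPM under CCS1477. T/F replicates had 172, 152 and 189 TPM under DMSO, and 61.7, 61.1 and 68.8 TPM under CCS1477. The treated libraries all lay below the untreated ones, and 25.6% to 40.2% of the DMSO level remained in each of the 6 mice. This gave a log2 change of -1.59 for D/F (SE 0.22, adjusted p = 0.0124) and of -1.40 for T/F (SE 0.10, adjusted p = 0.00052). The D/F call was lost without replicate 1 (adjusted p = 0.153) and without replicate 3 (adjusted p = 0.185), with changes of -1.63 and -1.72.

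Ccnd3 (ENSMUSG00000034165, chromosome 17, 47505051 to 47599691, plus strand), which encodes cyclin D3, was listed at low values. D/F replicates had 0.272, 13.2 and 2.25 TPM under DMSO, and 0, 4.13 and 0.877 TPM under CCS1477. Those of T/F had 2.04, 0.327 and 1.82 TPM, then 0.389, 0.200 and 1.35 TPM. The value was lower with CCS1477 in 6 of 6 mice, but the groups overlapped, and replicate 2 of D/F, the mouse with the high megakaryocyte markers, was far above the rest. Log2 changes were -0.87 for D/F (SE 0.97, adjusted p = 0.593), -0.51 for T/F (SE 0.40, adjusted p = 0.344) and -0.69 over both genotypes (adjusted p = 0.342, or 0.0143 with the mouse as a block). As for Ptprc, the low Ccnd3 value was not taken as low expression, and the share of Ccnd2 rests on it. Ccnd2 made up 97.0% ± 3.9 (SD, n = 3) of the Ccnd2 and Ccnd3 sum in D/F with DMSO and 99.2% ± 0.50 in T/F, and 96.6% ± 4.9 and 99.0% ± 0.85 with CCS1477. The pair summed to 181 ± 5.7 TPM under DMSO in D/F mice and 60.8 ± 13 TPM under CCS1477, and to 172 ± 19 and 64.5 ± 4.9 TPM in T/F mice. Ccnd1, the gene of cyclin D1, is no member and is named here after its values were seen. It was at 9.52 ± 3.6 TPM (SD, n = 3) under DMSO and 2.61 ± 0.71 TPM under CCS1477 for T/F, and at 6.74 ± 4.5 and 2.19 ± 0.28 TPM for D/F. The log2 changes were -1.50 and -1.12 (adjusted p = 0.0095 and 0.127, the latter 0.048 with the mouse as a block).

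Cdk6 (ENSMUSG00000040274, chromosome 5, 3341485 to 3531008, plus strand) had the largest response of the 10 genes. Its product is the D-cyclin kinase prominent in blood progenitors. Under DMSO the D/F replicates had 236, 295 and 244 TPM, and under CCS1477 40.4, 45.9 and 51.4 TPM. For T/F these values were 232, 199 and 273 TPM under DMSO, and 61.7, 58.7 and 84.9 TPM under CCS1477. No treated library came near an untreated one, and 15.6% to 21.1% of the DMSO level remained in the D/F mice and 26.6% to 31.1% in the T/F mice. On the log2 scale the change was -2.47 for D/F (SE 0.17, adjusted p = 0.0031) and -1.77 for T/F (SE 0.18, adjusted p = 0.0012). Without D/F replicate 1 or 3 the change was -2.44 or -2.59 and the adjusted p was 0.0999 or 0.177.

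Cdk4 (ENSMUSG00000006728, chromosome 10, 127063534 to 127067920, plus strand), the other D-cyclin kinase, had the highest level of the 10 genes in all 4 groups and responded less. Levels in D/F were 629, 434 and 679 TPM under DMSO, and 331, 228 and 376 TPM under CCS1477. Levels in T/F were 558, 505 and 581 TPM, then 374, 400.5 and 397 TPM. Treated and untreated libraries did not overlap in either genotype, and each D/F mouse kept nearly the same share of its own DMSO level, 52.4% to 55.4%, against 66.9% to 79.3% in T/F. The log2 change in T/F was -0.49 (SE 0.08, adjusted p = 0.00445), which became 0.0611 without T/F replicate 1. For D/F it was -0.90 (SE 0.26, adjusted p = 0.0754), or adjusted p = 0.00622 with the mouse as a block and 0.0217 without D/F replicate 2.

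The balance of the kinase pair moved with the drug. Cdk6 made up 31.4% ± 7.8 (SD, n = 3) of the Cdk4 and Cdk6 sum in D/F with DMSO and 13.2% ± 3.1 with CCS1477, and 29.9% ± 1.9 and 14.9% ± 2.5 in T/F. The ranges did not overlap in either genotype (26.4% to 40.4% against 10.9% to 16.8%, and 28.2% to 32.0% against 12.8% to 17.6%). Both kinases together reached 839 ± 99.5 TPM under DMSO in D/F mice and 358 ± 78 TPM under CCS1477, and 783 ± 75 and 459 ± 23 TPM in T/F mice. These shares are descriptions and were given no test.

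The bases upstream of both kinase genes are shown because theirs were the only windows of these genes with the E-box CACGTG, the letters bound by MYC and MAX. Whether MYC or MAX has a part in the falls of Cdk4 and Cdk6 was not tested. RefSeq windows of 250 bases before a transcript start (GRCm38.p6) were matched for 7 of the 10 genes, in 9 windows. The remaining genes were Ccnd2, Ccne2 and Rb1. The sequences are written 5′ to 3′ on the plus strand with each CACGTG in capitals, and stop before the first base that GENCODE annotates as exon. The Cdk4 stretch is chr10:127063285-127063533, directly before the annotated gene. The Cdk6 stretch is chr5:3343643-3343731, inside the annotated gene and before an alternative first exon.
Cdk4: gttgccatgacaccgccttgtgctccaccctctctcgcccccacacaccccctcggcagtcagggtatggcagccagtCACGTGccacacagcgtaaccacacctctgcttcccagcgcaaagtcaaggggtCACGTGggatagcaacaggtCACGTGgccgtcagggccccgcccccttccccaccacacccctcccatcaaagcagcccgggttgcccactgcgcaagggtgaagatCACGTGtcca
Cdk6: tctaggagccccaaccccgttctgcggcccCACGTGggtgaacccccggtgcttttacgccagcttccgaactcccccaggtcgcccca

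The 4 matches of Cdk4 began 172, 118, 98 and 11 bases before the RefSeq start, and the 1 match of Cdk6 began 220 bases before it. CACGTG reads the same on both strands. It occurred at least once in 6.02% of 32851 windows of this length, and 4 or more times in 7 of them (0.0213%). These shares are not matched for base content. The median content of G and C was 52.4% over all windows, against 64.4% for the Cdk4 window and 66% for that of Cdk6. Searched on both strands, the E2F letters TTTCGCGC, TTTGGCGC, TTTCCCGC and TTTGCCGC occurred in 0 of the 9 windows of these genes and in 1.86% of all windows, the STAT letters TTCNNNGAA in 0 of the 9 and in 7.02%, and the FOXO letters GTAAACA in 1 of the 9, a Ccnd3 window, and in 3.17%. Like that of Cdk6, the E2f1 window, 1 window of E2f2 and 1 of Ccnd3 lay inside the annotated gene. These counts thus do not cover the annotated starts of E2f1, Cdk6 or the genes without a window (Ccnd2, Ccne2 and Rb1). A match is a description of the letters and not of binding.

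**Figure D2:**
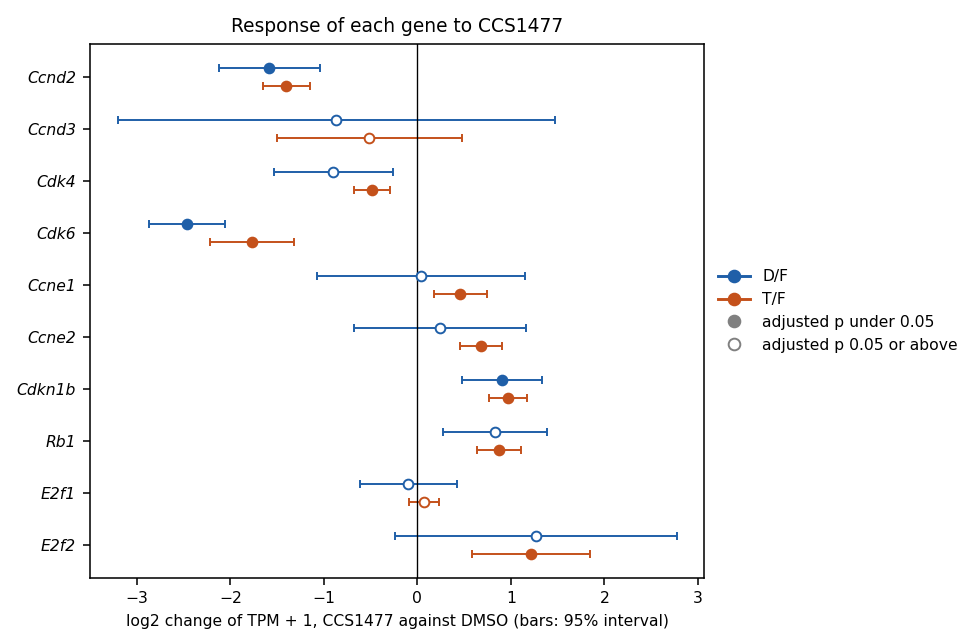
Log2 change of TPM + 1 with CCS1477 against DMSO for each gene on the horizontal axis, with its 95% interval from the limma fit (D/F in blue, T/F in orange, filled points passed at adjusted p under 0.05). Cdk6 lies farthest to the left, at -2.47 in D/F and -1.77 in T/F, and E2f2 farthest to the right, at 1.27 and 1.21, with a wide interval in D/F.

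The E-type cyclins, the partners of CDK2, did not follow the D-type cyclin. Ccne2 (ENSMUSG00000028212, chromosome 4, 11191351 to 11204779, plus strand) rose in T/F, from 59.0, 71.7 and 62.0 TPM under DMSO to 108, 103 and 98.6 TPM under CCS1477. D/F libraries had 71.8, 52.7 and 73.4 TPM under DMSO, and 96.7, 42.2 and 113 TPM under CCS1477. The T/F groups did not overlap. In D/F the value was higher with CCS1477 in replicates 1 and 3 and lower in replicate 2. Its log2 change was 0.68 for T/F (SE 0.09, adjusted p = 0.00268) and 0.24 for D/F (SE 0.38, adjusted p = 0.718). Over both genotypes it was 0.46 (adjusted p = 0.102), or adjusted p = 0.0271 with the mouse as a block, and 0.61 (adjusted p = 0.000123) without D/F replicate 2.

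Ccne1 (ENSMUSG00000002068, chromosome 7, 38097984 to 38107534, minus strand) showed the same division by mouse at a lower level. T/F libraries had 36.8, 42.6 and 31.6 TPM under DMSO, and 50.6, 52.2 and 49.8 TPM under CCS1477, without overlap. Those of D/F had 25.4, 20.9 and 32.5 TPM, then 34.9, 12.2 and 42.9 TPM, and again replicate 2 alone had the lower treated value. For T/F the log2 change was 0.46 (SE 0.11, adjusted p = 0.0216), which was lost without T/F replicate 1 (0.47, adjusted p = 0.129) or replicate 3 (0.37, adjusted p = 0.0629), and 0.38 (adjusted p = 0.0718) with each library rescaled to its median gene. For D/F it was 0.04 (SE 0.46, adjusted p = 0.969). Over both genotypes the change of 0.25 (adjusted p = 0.465) became 0.44 (adjusted p = 0.00459) without D/F replicate 2. Ccne1 made up 28.4% ± 2.3 (SD, n = 3) of the pair in D/F with DMSO and 25.5% ± 2.7 with CCS1477, and 36.5% ± 2.5 and 33.1% ± 0.97 in T/F.

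Cdkn1b (ENSMUSG00000003031, chromosome 6, 134920401 to 134925513, plus strand), which encodes the CDK inhibitor p27, rose in both genotypes by nearly the same amount. The D/F values were 39.2, 33.4 and 28.8 TPM under DMSO, and 72.7, 58.6 and 60.3 TPM under CCS1477. The T/F values were 32.6, 38.4 and 33.5 TPM, then 66.3, 71.4 and 69.1 TPM. All treated libraries lay above all untreated ones, at 176% to 209% of the DMSO level of the same mouse. Log2 changes were 0.90 for D/F (SE 0.18, adjusted p = 0.0284) and 0.97 for T/F (SE 0.08, adjusted p = 0.00077). The D/F call was lost without replicate 1 (0.92, adjusted p = 0.214) or replicate 3 (0.83, adjusted p = 0.284). Set against the kinases of the D-type cyclins, there were 4.08 ± 0.83 (SD, n = 3) TPM of Cdkn1b per 100 TPM of Cdk4 and Cdk6 in D/F with DMSO and 18.4 ± 3.8 with CCS1477, and 4.50 ± 0.83 and 15.0 ± 0.61 in T/F, a description of transcript levels with no test.

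Rb1 (ENSMUSG00000022105, chromosome 14, 73183673 to 73325822, minus strand) encodes Rb, the substrate of the D-cyclin kinases. D/F mice had 40.1, 54.4 and 30.7 TPM under DMSO, and 66.9, 79.9 and 72.4 TPM under CCS1477. T/F mice had 34.7, 42.6 and 37.5 TPM, then 75.4, 69.5 and 67.6 TPM. Treated libraries stood above all untreated ones of their genotype, and the value was higher with CCS1477 in 6 of 6 mice. The log2 change in T/F was 0.87 (SE 0.10, adjusted p = 0.00143). The D/F change missed the threshold at 0.83 (SE 0.23, adjusted p = 0.0667), or adjusted p = 0.0228 with the mouse as a block and 0.0293 without D/F replicate 2.

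The activator E2F genes moved apart. E2f2 (ENSMUSG00000018983, chromosome 4, 136172394 to 136196057, plus strand) had 47.0, 55.7 and 31.5 TPM under DMSO in T/F and rose to 104, 128 and 80.4 TPM under CCS1477. D/F mice had 36.1, 10.3 and 25.8 TPM under DMSO, and 82.4, 22.9 and 77.5 TPM under CCS1477. Each of the 6 mice had a higher value with CCS1477, at 221% to 300.4% of its own DMSO level, although the D/F groups overlapped because replicate 2 was low in both cultures. The change on the log2 scale was 1.21 for T/F (SE 0.26, adjusted p = 0.0125) and 1.27 for D/F (SE 0.63, adjusted p = 0.230). The D/F call was made in the blocked fit (adjusted p = 0.00708) and without D/F replicate 2 (adjusted p = 0.0218). The T/F call was lost without T/F replicate 1 (adjusted p = 0.0855) or replicate 2 (adjusted p = 0.0510).

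E2f1 (ENSMUSG00000027490, chromosome 2, 154559407 to 154569892, minus strand) was at 34.9 to 39.4 TPM in all libraries but 1. D/F had 35.3, 36.1 and 35.6 TPM under DMSO, and 38.4, 24.3 and 39.3 TPM under CCS1477. T/F had 35.4, 34.9 and 37.7 TPM, then 37.3, 39.4 and 36.7 TPM. Treated and untreated libraries overlapped, and D/F replicate 2 was again the one with a distinctly lower treated value. Its log2 change was -0.10 for D/F (95% interval -0.62 to 0.42, adjusted p = 0.802) and 0.07 for T/F (95% interval -0.09 to 0.23, adjusted p = 0.428). E2f2 made up 38.3% ± 15 (SD, n = 3) of the E2f1 and E2f2 sum in D/F with DMSO and 61.0% ± 11 with CCS1477, and 54.7% ± 8.2 and 72.9% ± 3.9 in T/F.

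**Figure D3:**
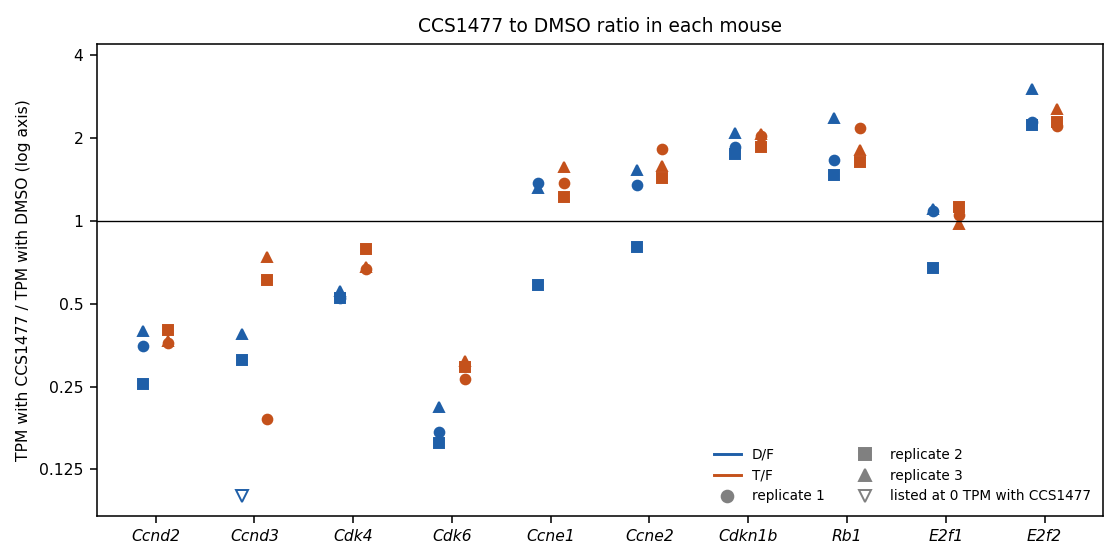
Ratio of TPM with CCS1477 to TPM with DMSO in each of the 6 mice, on a log axis (D/F in blue, T/F in orange, the marker shape gives the replicate; the open triangle marks the Ccnd3 value listed at 0). Ccnd2, Ccnd3, Cdk4 and Cdk6 lie below 1 and Cdkn1b, Rb1 and E2f2 above 1 in all 6 mice, and for Ccne1, Ccne2 and E2f1 replicate 2 of D/F (blue squares) lies below the other 5 mice.

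Taken gene by gene, TPM ranges of treated and untreated libraries did not overlap for 5 of the 10 genes in D/F (Ccnd2, Cdk4 and Cdk6 lower, Cdkn1b and Rb1 higher) and for 8 in T/F (3 lower and 5 higher, all but Ccnd3 and E2f1). Over all genes tested, 19.9% were higher and 16.7% lower without overlap for D/F mice, and 33.5% and 22.6% for T/F mice. An exact two-sided permutation test of 3 against 3 libraries gave p = 0.1 for each of the genes without overlap, the smallest value this design allows.

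With DMSO, the order of the levels began alike in both genotypes: Cdk4, then Cdk6, then Ccnd2, then Ccne2, with no overlap between neighbours among the first 4. Means were 581, 258, 176 and 66.0 TPM for D/F, and 548, 235, 171 and 64.2 TPM for T/F. In D/F, Ccne2 overlapped with the next gene, Rb1, and from Ccne2 down to Ccnd3 each neighbour in the order overlapped with the next. In T/F, E2f2, Rb1, Ccne1, E2f1 and Cdkn1b followed, at means of 34.8 to 44.7 TPM and each overlapping with the next. With CCS1477 the order changed. Cdk4 was still first, at 312 TPM in D/F and 390.2 TPM in T/F, but Cdk6 went from the second place to the seventh in D/F and the sixth in T/F, below Cdkn1b and Rb1 in the mean, and Ccnd2 from the third place to the sixth and the seventh. Among all genes of a library group, Cdk6 lay at percentile 96.8 with DMSO and 73.4 with CCS1477 for D/F mice, and at 96.3 and 83.0 for T/F mice.

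Whether the response differed between genotypes was tested in one fit over the 12 libraries. No member passed (limma, adjusted p of 0.9999 for each of the 10), nor did any other gene (0% of 15583), with 1 of the 10 members and 659 of all genes at an unadjusted p under 0.05. With the mouse as a block the lowest adjusted p of a member was 0.181, for Cdk6. In that limma fit Cdk6 and Cdk4 had an unadjusted p of 0.00237 and 0.00611, and the adjusted p of Cdk4 was 0.212. Without the block the member under the unadjusted limit was Cdk6. Its log2 change was higher by 0.70 in T/F than in D/F (SE 0.25, 95% interval 0.15 to 1.25), that is, a smaller fall in T/F, which had the lower dose. For Cdk4 the difference was 0.41 (95% interval -0.22 to 1.05, SE 0.29, or SE 0.10 with the block). It was 0.19 for Ccnd2 (-0.37 to 0.74), 0.06 for Cdkn1b (-0.35 to 0.48) and 0.05 for Rb1 (-0.52 to 0.61). The intervals of Cdk6 and Cdk4 reached past a 2-fold difference. So did those of Ccne1 (-0.73 to 1.58), Ccne2 (-0.51 to 1.38), E2f2 (-1.71 to 1.60) and Ccnd3 (-2.24 to 2.95).

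The genotypes were also compared under the same treatment. Under DMSO 0 of the 10 genes passed (limma, 1 at an unadjusted p under 0.05) against 0.0328% of 15265 genes. Under CCS1477 0 of 10 passed (1 at an unadjusted p under 0.05) against 0.0329% of 15199 genes, and there dose differs too. Ccne1 was the one under DMSO, higher in T/F by 0.49 on the log2 scale (95% interval 0.01 to 0.98, adjusted p = 0.803). Cdk6 was the one under CCS1477, higher in T/F by 0.55 (95% interval 0.12 to 0.98, adjusted p = 0.365). E2f2 had the largest DMSO difference of the 10, 0.99 (95% interval -0.13 to 2.12, adjusted p = 0.840), which was 0.50 without D/F replicate 2. The intervals of Ccnd2 (-0.36 to 0.27), Cdk6 (-0.54 to 0.26), Cdkn1b (-0.32 to 0.42) and E2f1 (-0.24 to 0.26) under DMSO held no 2-fold difference.

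The partners of these genes were read from lists of the same pathway. Beside the counts stand the shares of all genes tested: 25.8% higher and 17.6% lower in T/F, and 5.14% and 6.51% in D/F. With the mouse as a block 21.4% and 18.0% passed in D/F, and 4760 and 3489 of 15256 genes in T/F. Of 7 other G1 kinase partners, 4 fell and 1 rose in T/F and 1 fell in D/F, with a median log2 change of -0.29 in T/F and -0.44 in D/F, against 0.07 and 0.06 over all genes tested. With the mouse as a block 3 fell in D/F. Cdk7, a subunit of the CDK-activating kinase, fell in T/F from 15.2 ± 1.2 TPM (SD, n = 3) under DMSO to 8.98 ± 0.56 TPM, and in D/F from 15.4 ± 2.0 to 8.81 ± 1.2 TPM (log2 changes -0.70 and -0.74, adjusted p = 0.00182 and 0.0408). Cdk2, the cyclin E kinase, rose in T/F (0.30, adjusted p = 0.014, a call lost with each library rescaled to its median gene) and was at 62.6 ± 5.7 and 67.1 ± 14 TPM in D/F (0.08, adjusted p = 0.830). Among CDK inhibitors, 4 of 6 listed genes had a value, 2 rose in T/F and 1 in D/F, and the median log2 change was 0.56 and 0.86. With the mouse as a block 3 rose in each genotype. Cdkn2c, which encodes the CDK4 and CDK6 inhibitor p18, rose in T/F from 8.37 ± 1.5 TPM under DMSO to 27.3 ± 1.8 TPM, and in D/F from 8.11 ± 1.9 to 24.5 ± 9.1 TPM (1.60 and 1.43, adjusted p = 0.00067 and 0.0423). Cdkn1a, which encodes p21, had changes of 0.33 in T/F and 0.46 in D/F (adjusted p = 0.405 and 0.390, or 0.0314 and 0.200 with the mouse as a block), and its value was higher with CCS1477 in each T/F mouse.

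Among 10 other genes of pocket proteins, E2F factors and their DP partners, 5 rose and 2 fell in T/F and 1 rose and 1 fell in D/F (median log2 change 0.32 and 0.24). The D/F counts were 4 and 3 with the mouse as a block. Over all genes tested, 25.8% rose and 17.6% fell in T/F, and 5.14% and 6.51% in D/F, or 21.4% and 18.0% in D/F with the block. E2f7, an atypical E2F that represses, rose in T/F from 20.6 ± 2.3 TPM under DMSO to 38.0 ± 2.6 TPM, and in D/F from 17.2 ± 1.8 to 31.0 ± 5.5 TPM (0.86 and 0.80, adjusted p = 0.0019 and 0.0417). E2f4, a repressor-type E2F that works with pocket proteins, fell in T/F from 112 ± 1.8 TPM under DMSO to 74.7 ± 1.6 TPM, and in D/F from 112 ± 17 to 62.9 ± 8.6 TPM (-0.58 and -0.82, adjusted p = 0.00102 and 0.0399). The D/F calls of Cdkn2c, E2f7 and E2f4 were lost with each library rescaled to its median gene. The Rb relatives Rbl1 and Rbl2 rose in T/F (0.47 and 0.70, adjusted p = 0.00836 and 0.00136). Their changes in D/F were 0.28 and 0.41 (adjusted p = 0.246 and 0.207), and Rbl2 was at adjusted p = 0.0498 with the mouse as a block. Of 8 ubiquitin ligase genes that act on the G1 regulators, 1 fell in T/F and 0 passed in D/F (limma, 0 at an unadjusted p under 0.05), with medians of 0.04 in both, which turned to -0.05 in T/F and -0.01 in D/F with each library rescaled to its median gene. With the mouse as a block 1 rose and 1 fell in T/F.

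The E2F target genes, 30 textbook targets, most of them genes of DNA replication or nucleotide synthesis with others such as Ccna2, Mybl2, Uhrf1 and Ezh2, did not move together. In T/F 10 rose and 6 fell, against 25.8% and 17.6% of all genes tested. As many changes lay above 0 as below (15 and 15), with a median log2 change of -0.05. The T/F counts were 6 and 6 with each library rescaled to its median gene, and the T/F median was 0.04 with quantile normalization. In D/F 1 rose and 0 fell (limma, 2 and 2 at an unadjusted p under 0.05), with 11 above 0 and 19 below and a median of -0.18. With the mouse as a block 1 rose and 3 fell. The D/F shares over all genes tested were 5.14% and 6.51%, or 21.4% and 18.0% with the block. Without D/F replicate 2 there were 3 and 2 (8 and 4 at an unadjusted p under 0.05 by limma), with a median of -0.01. Slbp, which encodes the histone stem-loop binding protein, passed in both genotypes: it rose in T/F from 130 ± 8.3 TPM under DMSO to 206 ± 10 TPM, and in D/F from 109 ± 5.8 to 205 ± 46 TPM (0.67 and 0.89, adjusted p = 0.00169 and 0.0408). Its D/F call was lost with the same rescaling. Mybl2, given here after its values were seen, had the lowest log2 change of the list in both genotypes. It was -0.94 in T/F (limma, adjusted p = 0.0007) and -1.03 in D/F (adjusted p = 0.0609, or 0.0089 with the mouse as a block).

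**Figure D4:**
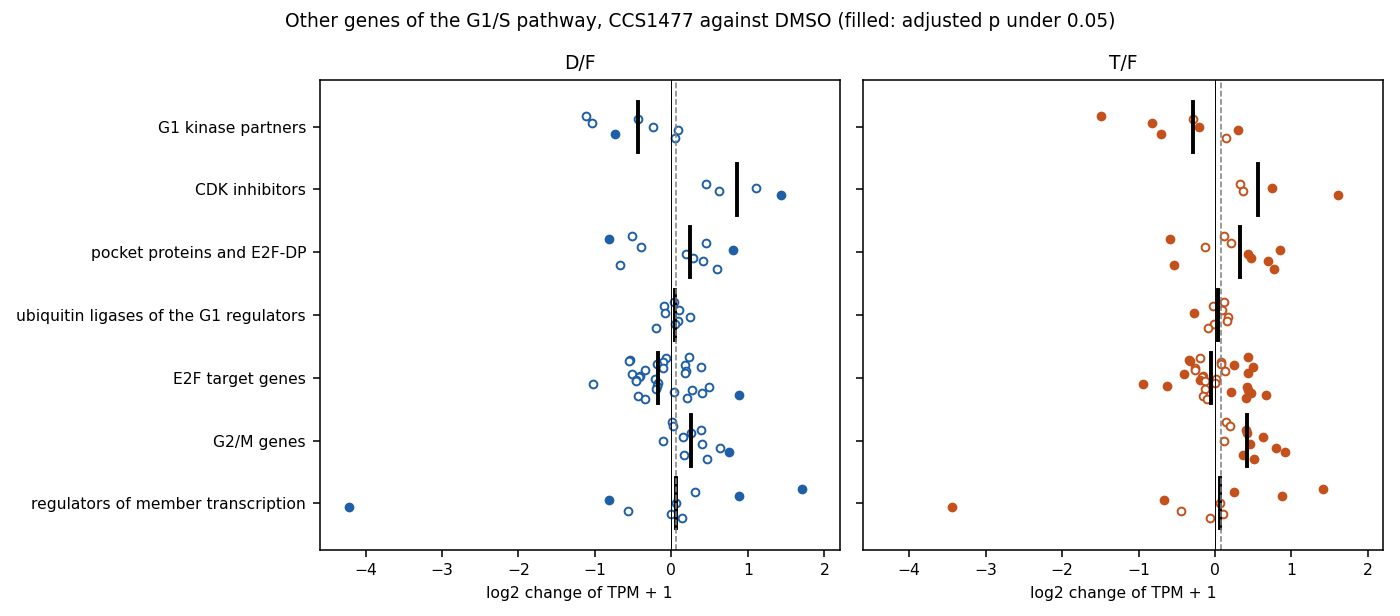
Log2 change of TPM + 1 with CCS1477 against DMSO of each gene of 7 pathway lists in D/F (left) and T/F (right), filled where adjusted p was under 0.05, with the list's median as a black bar and the median of all genes tested as a dashed line. CDK inhibitors and G2/M genes lie mostly right of the line and G1 kinase partners mostly left of it, E2F target genes lie on both sides, and the point farthest to the left is Myc, at -4.21 in D/F and -3.45 in T/F.

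Of 9 listed regulators of these genes' transcription, Myc, which raises Ccnd2 and Cdk4 in many cell types, had the largest change. D/F mice had 300.3, 468 and 367 TPM under DMSO, and 20.7, 17.8 and 19.0 TPM under CCS1477. T/F mice had 265, 229.5 and 311 TPM, then 24.9, 19.3 and 27.1 TPM. Myc thus changed by -4.21 on the log2 scale in D/F (SE 0.20, adjusted p = 0.00131) and by -3.45 in T/F (SE 0.16, adjusted p = 0.00031). Max, the partner of MYC, fell by 0.82 and 0.67 on the log2 scale (adjusted p = 0.0259 and 0.00084). Foxo1, of the FOXO factors that raise Cdkn1b, rose in D/F from 3.97 ± 1.7 TPM under DMSO to 14.8 ± 2.3 TPM, and in T/F from 4.52 ± 0.95 to 13.6 ± 1.7 TPM (1.71 and 1.41, adjusted p = 0.0162 and 0.0015), and Foxo4 rose by 0.89 and 0.87 (adjusted p = 0.0466 and 0.00112). Over the list, 2 rose and 2 fell in D/F, against 5.14% and 6.51% of all genes tested. In T/F 3 rose and 2 fell, against 25.8% and 17.6%. There were 3 falls in each with the mouse as a block, and the median was 0.05 for D/F and 0.07 for T/F.

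For each member the gene with the most similar profile over the 12 libraries was found among 11595 genes, by the root-mean-square difference of centred log2(TPM + 1). The nearest was Nifk for Ccnd2 (0.12), Eif6 for Cdk4 (0.08), Aqp9 for Cdk6 (0.21), Ttl for Rb1 (0.08) and Abca3 for Cdkn1b (0.11). For the S-phase side it was E2f8 for Ccne2 (0.14), Vim for Ccne1 (0.20), Hnrnpl for E2f1 (0.07) and Sept10 for E2f2 (0.39). Ccnd3 was nearest to Rab37 (0.36), with the megakaryocyte marker Itga2b next (0.37). The SD of the member's own profile was 0.77 for Ccnd2, 0.43 for Cdk4, 1.09 for Cdk6, 0.47 for Rb1, 0.49 for Cdkn1b, 0.43 for Ccne2, 0.56 for Ccne1, 0.17 for E2f1, 0.98 for E2f2 and 1.04 for Ccnd3, so the likeness was closest, relative to the spread, for Ccnd2, Rb1 and Cdk4. The points share treatment and mouse, and no test was made.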

How the data were processed

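Per the labels, RNA came from c-Kit+ enriched leukemic splenocytes. They name ribosomal depletion and also an mRNA library kit, both stranded, with paired reads. The deposited values are gene-level TPM made by the authors, with kallisto and mm10 named in the submitters' processing notes (no version given in the sources used here). Every gene reached at least 2.00 TPM in a library, and the table holds only such genes. Symbols and positions came from GENCODE vM21 (GRCm38) for 15252 of 15651 genes.

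Groups were compared on log2(TPM + 1) with limma 3.58.1 in R 4.3.3 (eBayes, two-sided), keeping genes whose mean reached 1 TPM in one of the groups compared. Genes passed at a Benjamini-Hochberg adjusted p under 0.05 over all genes tested. Fold changes on this scale understate the change of low genes. The labels give the mouse of each library, and cultures of the same mouse deviated together (correlations 0.354 to 0.669, against at most 0.141 between mice). The deviations were from means of 3 libraries, which by itself lowers the correlations between mice. The pairing therefore rests on the labels, and the block was fitted as well. The 10 genes and the lists were chosen with earlier results of these data known. Beyond the 10 genes, those named were the 2 largest rises and 2 largest falls per list that passed in both genotypes at 5 TPM or more, with Myc, Cdk2, Cdkn1a, Rbl1 and Rbl2 in any case, and the nearest profile per member. Alternatives were another pseudocount (0.1), filters (5 TPM, none), scaling by the median gene, quantile normalization, a trend in eBayes, a shared fit of the 4 groups and leaving out each mouse. The list counts under rescaling and without D/F replicate 2 were added after the data were seen. The erythroid marker list is not reported here.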

Additional observations from a re-analysis of the deposited data

How the results depend on the processing

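No log2 change of a member that passed reversed under any alternative, and in the fit over both genotypes Ccnd2, Cdk4, Cdk6, Cdkn1b, Rb1 and E2f2 passed under all 13. In D/F, where 3 members passed, 5 passed with quantile normalization, 5 with the shared fit of the 4 groups, 6 with the mouse as a replicate block, and 0 to 6 when a mouse was left out. The count was 0 without replicate 1 or 3, where no gene of the table passed by limma (lowest adjusted p 0.0771 and 0.172). It was 6 without replicate 2, where 3739 of all genes passed. The cause was not tested. In T/F, where 8 passed, 3 also exceeded 2-fold, as did 1118 of 15256 genes. In the shared fit 4 passed, and Cdk4, Ccne1, Ccne2 and E2f2 were lost (limma, adjusted p 0.108 to 0.411). There 3713 of all genes passed, against 6620. That fit pools the spread of both genotypes, and the cause was not tested. When a T/F mouse was left out, 5 to 7 members passed. Over both genotypes 6 passed and 3 also exceeded 2-fold, as did 1371 of 15583 genes. The block changed no member's call in T/F. The counts over all genes were 1805 in D/F (1625 to 6098 under the alternatives that kept all mice, and 0 to 3739 with 1 left out), 6620 in T/F (3713 to 8249, and 3192 to 5122) and 7061 over both genotypes (6432 to 9403, and 5660 to 8546). For T/F against D/F the counts were 5 under DMSO (4 to 20) and 5 under CCS1477 (2 to 71), and for the difference of response 0 under every alternative. TPM gives no depth, so precision rests on the spread among 3 mice per genotype.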

Other observations

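The genes of G2 and mitosis, which lie past the switch, were higher with CCS1477 in T/F: 8 of 11 rose and 0 fell (limma, 8 and 0 at an unadjusted p under 0.05), against 25.8% and 17.6% of all genes tested. All 11 changes lay above 0, as did those of 8725 of 15256 genes. The median log2 change was 0.42, against 0.07 over all genes tested. With each library rescaled to its median gene 5 rose in T/F and 0 in D/F. In D/F 1 rose and 0 fell (limma, 3 and 0 at an unadjusted p under 0.05), against 5.14% and 6.51% of all genes tested. There 10 of 11 lay above 0, with a median of 0.25. With the mouse as a block 5 rose, against 21.4% of all genes. Mki67, the proliferation antigen Ki-67, passed in both: it was at 237, 234 and 187 TPM with DMSO and 449, 412.5 and 381 TPM with CCS1477 in T/F, and at 246, 192 and 219.9 TPM and 394, 308 and 412 TPM in D/F. The log2 change was 0.92 in T/F and 0.75 in D/F (limma, adjusted p = 0.0024 and 0.0476).

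The genes of the drug's targets, Ep300 and Crebbp, named after their values were seen, did not overlap between treatments: Ep300 was at 53.5 to 61.8 TPM with DMSO and 94.3 to 97.6 TPM with CCS1477 in D/F, and at 57.9 to 64.2 and 104 to 112 TPM in T/F. Crebbp was at 46.9 to 61.6 and 78.3 to 112 TPM in D/F, and at 49.0 to 51.1 and 86.7 to 91.4 TPM in T/F. Such a rise without overlap was common: 19.9% of all genes tested had it in D/F and 33.5% in T/F.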
